A study of Mus musculus with 6 samples.

Results

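The Polycomb repressive complexes were examined through 9 genes picked by name from the 20632 genes of the deposited table. They were *Ezh1*, *Ezh2*, *Suz12*, *Eed* and *Jarid2* of Polycomb repressive complex 2 (PRC2), and *Bmi1*, *Ring1*, *Rnf2* and *Cbx7* of Polycomb repressive complex 1 (PRC1). All 9 were found and all 9 had enough counts to be tested. RNA-seq was done on whole hind limb muscles of unexercised male C57BL/6 mice aged 3 months, with 3 Baf155 WT and 3 Baf155 ΔMF mice and 1 library for each mouse. Baf155 WT mice carried the floxed *Baf155* alleles without Cre and are labelled wild type, and Baf155 ΔMF mice (labelled Baf155 -/-) carried the same alleles with *MCK*-Cre. *MCK*-Cre is driven by the muscle creatine kinase gene and acts in skeletal myofibers and in the heart, so the other cells of the muscle keep Baf155. The question was whether loss of this SWI/SNF subunit changed the transcripts of the complexes that oppose SWI/SNF.

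Polycomb proteins keep developmental genes silent. PRC2 methylates the tail of histone H3 through EZH1 or EZH2, and PRC1 ubiquitinates histone H2A through RING1 or RNF2 and compacts chromatin. SWI/SNF remodelers evict Polycomb complexes from chromatin, and the opposition between them was first described in fly genetics. In muscle, EZH2 is known from dividing myogenic cells and EZH1 from differentiated fibers.

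The libraries held between 8426022 and 12469335 counts. The floor of 3 counts corresponded to 0.230 to 0.351 CPM. CPM are counts scaled to library size with TMM factors, and the floor covers counting error only. *Smarcc1*, which encodes Baf155, had 23.4, 19.5 and 16.95 CPM in the Baf155 WT mice and 7.05, 6.54 and 7.72 CPM in the Baf155 ΔMF mice (log2 fold change -1.49, standard error 0.15, adjusted p = 0.00907 in edgeR). All 8 myofiber markers were tested and gave 165900 to 206000 CPM in sum in Baf155 WT muscle and 181000 to 208800 CPM in Baf155 ΔMF muscle, so the tissue matched its label. Of the 8 myofiber markers, 2 did not overlap between genotypes, where 10.8% of all genes tested did not. The sums of satellite cell, fibro-adipogenic, macrophage, Schwann, adipocyte, smooth muscle and erythroid markers overlapped between genotypes, and no marker was called. Sample titles begin with MS13, MS14 or MS15, whose meaning is not stated. MS13 was carried by 1 Baf155 WT and 2 Baf155 ΔMF mice, MS15 by the other 2 Baf155 WT mice and MS14 by the remaining Baf155 ΔMF mouse, so outside MS13 prefix and genotype cannot be told apart. In 8289 of the 12116 genes tested (68.4%), the MS13 Baf155 WT mouse lay nearer to the mean of the Baf155 ΔMF mice than to that of the MS15 Baf155 WT mice. Below, values are given in the order MS13, MS15, MS15 for Baf155 WT and MS13, MS13, MS14 for Baf155 ΔMF.

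None of the 9 genes had an adjusted p under 0.05 in edgeR's quasi-likelihood test, against 0.0248% of all 12116 genes tested (0.00825% higher and 0.0165% lower in Baf155 ΔMF muscle). DESeq2 and limma-voom also called 0 of the 9. At an unadjusted p under 0.05 there was 1 gene, *Jarid2*, higher, against 7.95% of all genes (3.35% higher and 4.6% lower). The log2 fold changes of the 9 genes (Baf155 ΔMF over Baf155 WT) ran from -0.10 to 0.38 with a median of 0.11, beside a median of -0.00095 over all genes tested. The genotypes did not overlap in 1 of the 9 genes, *Ezh2*, higher, against 10.8% of all genes (5.2% higher and 5.57% lower). These transcripts were all present in adult muscle, and the 95% interval of each change is given with each gene below.

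**Figure D1:**
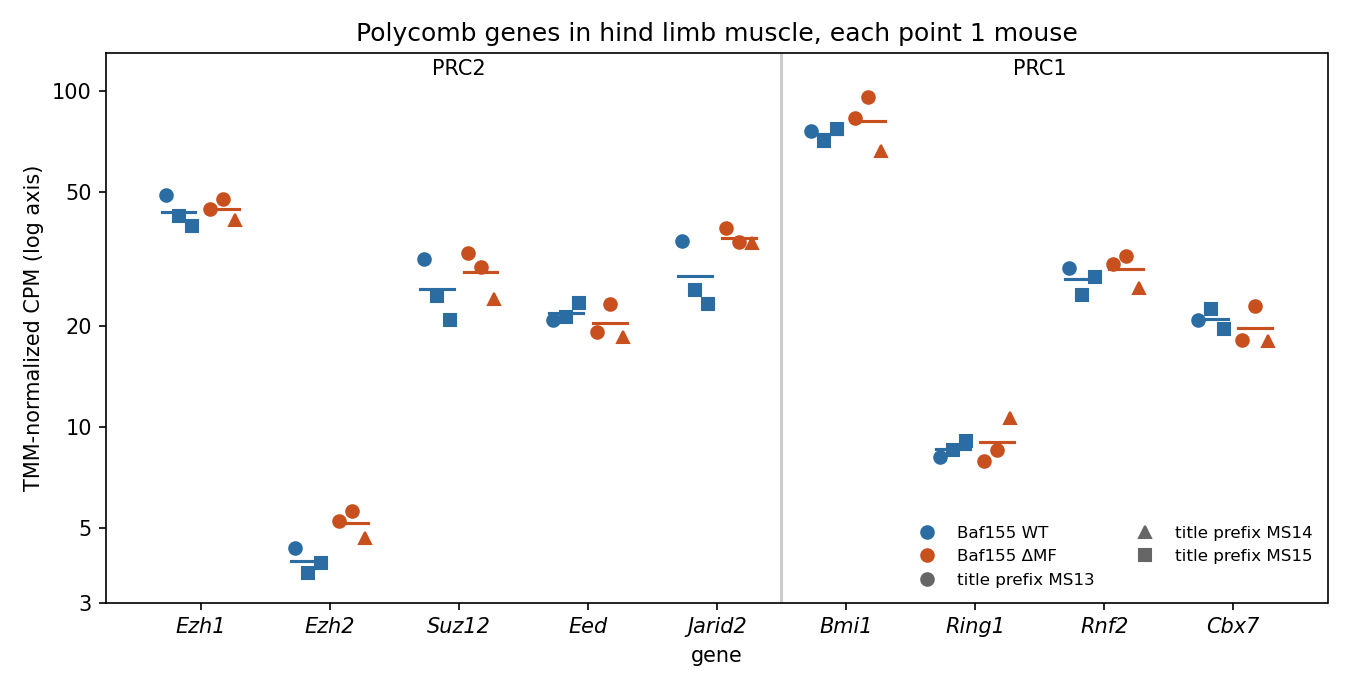
TMM-normalized CPM (vertical log axis) of the 9 Polycomb genes (horizontal axis) in each of the 6 mice, with colors for genotype, symbols for the title prefix and short lines for the group means. *Bmi1* is highest at 66.4 to 96.0 CPM and *Ezh2* lowest at 3.67 to 5.61 CPM. Of the 9, *Ezh2* alone shows no overlap between the genotypes, as do 10.8% of all genes tested.

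The catalytic subunits of PRC2 are encoded by *Ezh1*, on chromosome 11 of GRCm38 from 101191115 to 101226463, and *Ezh2*, on chromosome 6 from 47530139 to 47595341. *Ezh1* had 49.0, 42.5 and 39.8 CPM in the Baf155 WT mice and 44.6, 47.8 and 41.3 CPM in the Baf155 ΔMF mice. The 6 values were mixed between genotypes, and the highest belonged to the MS13 Baf155 WT mouse. The log2 fold change was 0.03 (95% interval -0.20 to 0.26, adjusted p = 0.947 in edgeR), so the upper bound of the interval was 1.197-fold. *Ezh2* rested on far fewer counts, with 45, 48 and 44 counts in Baf155 WT and 49, 54 and 40 counts in Baf155 ΔMF muscle. As CPM these were 4.37, 3.67 and 3.93 in the Baf155 WT mice and 5.23, 5.61 and 4.68 in the Baf155 ΔMF mice, so each Baf155 ΔMF mouse lay above each Baf155 WT mouse. The log2 fold change of *Ezh2* was 0.38 (95% interval -0.01 to 0.77, adjusted p = 0.622 in edgeR). *Ezh2* was also higher between the MS13 mice alone, by 0.30 on the log2 scale, given as a value because only 1 of these mice is Baf155 WT. The lincRNA gene *Gm26625* and a pseudogene overlap *Ezh2* on the opposite strand, and no gene overlaps *Ezh1*.

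In adult muscle the balance of the pair was strongly toward *Ezh1*. Per kilobase of annotated exons, *Ezh1* had 5.88 ± 0.633 CPM in the Baf155 WT group and 5.99 ± 0.436 CPM in the Baf155 ΔMF group (mean ± SD, n = 3), and *Ezh2* had 0.598 ± 0.0531 and 0.775 ± 0.0700 CPM. The ratio of *Ezh1* to *Ezh2* within a library, which no scaling between libraries can move, was 9.66, 10.02 and 8.74 in the Baf155 WT mice and 7.39, 7.41 and 7.59 in the Baf155 ΔMF mice. It was lower in every Baf155 ΔMF mouse than in any Baf155 WT mouse. The ratio uses the same *Ezh2* counts as above, 40 to 54 per mouse, so it is no separate support for a difference. With so few counts, the close values of the 3 Baf155 ΔMF mice say little about their true spread. On the log2 scale the ratio was 3.24 ± 0.10 in Baf155 WT muscle and 2.90 ± 0.02 in Baf155 ΔMF muscle, a difference of -0.34, which is given without a test. The difference stayed between -0.40 and -0.30 with each mouse left out in turn. With the longest transcript as the length, the geometric mean ratios were 6.98 and 5.51 in place of 9.46 and 7.46, while the difference between genotypes does not depend on length. *Ezh2* made up 9.24% ± 0.589 of the summed pair in Baf155 WT muscle and 11.4% ± 0.202 in Baf155 ΔMF muscle.

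The 6 proliferation genes listed differed widely in level in the same libraries. *Mki67*, a marker of cycling cells, had 3.05 ± 0.532 CPM in the Baf155 WT group and 2.92 ± 0.527 CPM in the Baf155 ΔMF group, with 0.296 CPM per kilobase over the 6 mice. *Top2a*, a topoisomerase of mitosis, had 1.28 ± 0.0725 and 0.883 ± 0.432 CPM. *Pcna* was the highest of the 6, with 23.9 ± 3.23 and 22.6 ± 1.02 CPM. Over the 6 mice it had 9.68 CPM per kilobase, at the 76.2nd percentile of all genes tested. Of the 6 proliferation genes listed, 3 had enough counts to be tested, and none of these had an adjusted p under 0.05, an unadjusted p under 0.05 or values that separated the genotypes. Their log2 fold changes ran from -0.54 to -0.06, and the part of dividing cells in the *Ezh2* values was not tested. The summed endothelial markers were higher in every Baf155 ΔMF mouse than in any Baf155 WT mouse. All 4 were tested and 0 were called. Of the 4, 2 did not overlap between genotypes, where 10.8% of all genes tested did not. Their summed level was 159.6 to 214.1 CPM in the Baf155 WT group and 215.2 to 242.9 CPM in the Baf155 ΔMF group. None of the 4 was at the floor, and the part of endothelial cells in the *Ezh2* values was not tested. In whole muscle, a change in the number of cells of a type and a change in RNA per cell cannot be told apart. The satellite cell list summed to 15.8 to 17.4 CPM in the Baf155 WT group and 15.4 to 17.3 CPM in the Baf155 ΔMF group.

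The sequences before the starts of *Ezh1* and *Ezh2* are shown because *Ezh2* was the member whose genotypes did not overlap, *Ezh1* is its paralog, and *Ezh2* is known as a target of E2F, the factors that drive genes of the cell cycle. Each run goes from 250 bases before to 15 bases after the RefSeq start on the minus strand of GRCm38.p6, chr11:101226449-101226713 for *Ezh1* and chr6:47595016-47595280 for *Ezh2*, and capitals mark an E2F-type 8-mer.
Ezh1: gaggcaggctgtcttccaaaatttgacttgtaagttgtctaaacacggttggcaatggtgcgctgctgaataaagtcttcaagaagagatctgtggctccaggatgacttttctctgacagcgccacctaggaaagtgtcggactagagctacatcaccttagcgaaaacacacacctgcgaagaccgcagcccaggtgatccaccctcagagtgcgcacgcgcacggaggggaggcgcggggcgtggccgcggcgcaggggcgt
Ezh2: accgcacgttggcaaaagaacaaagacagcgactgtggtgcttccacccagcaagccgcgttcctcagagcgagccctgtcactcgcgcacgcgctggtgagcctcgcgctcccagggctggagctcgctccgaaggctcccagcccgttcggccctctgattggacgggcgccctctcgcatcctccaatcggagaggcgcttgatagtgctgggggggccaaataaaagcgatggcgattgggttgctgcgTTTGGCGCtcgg
The letters searched were TTTGGCGC and TTTCCCGC on both strands. The window of *Ezh2* held TTTGGCGC beginning at base 4 of the transcript, and that of *Ezh1* held neither. Among all 32851 windows of this length, 0.451% held TTTGGCGC, 0.953% held TTTCCCGC and 1.39% held at least 1 of them. Among the other 7 genes, *Suz12* alone had a match, TTTCCCGC beginning 219 bases before its start. All 9 genes had a window, and *Jarid2* had 2. These windows shared a high number of CpG dinucleotides, from 15 in *Eed* to 40 in *Suz12*, beside a median of 6 over all windows. A match of letters is a description and not a binding site.

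The other core subunits of PRC2 are SUZ12, which holds the complex together, and EED, which binds the methylated histone. *Suz12* had 31.7, 24.6 and 20.8 CPM in the Baf155 WT mice and 32.9, 29.9 and 24.1 CPM in the Baf155 ΔMF mice, a log2 fold change of 0.18 (95% interval -0.18 to 0.53, adjusted p = 0.751 in edgeR). The genotypes overlapped, and the MS13 mice of both were the highest of their group. Within MS13 its log2 fold change was -0.01. *Eed* had 20.9, 21.3 and 23.5 CPM against 19.2, 23.3 and 18.6 CPM, a log2 fold change of -0.10 (95% interval -0.36 to 0.16, adjusted p = 0.812). *Suz12* lies on chromosome 11 from 79993106 to 80034123 and *Eed* on chromosome 7 from 89954654 to 89980983, and both are overlapped by noncoding genes on the opposite strand (*Eed* also by an unclassified transcript on its own strand).

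*Jarid2* encodes a cofactor that guides PRC2 to its sites, and it had the smallest unadjusted p of the 9 genes. It lies on chromosome 13 from 44729474 to 44921643. It had 35.8, 25.6 and 23.3 CPM in the Baf155 WT mice and 39.2, 35.5 and 35.3 CPM in the Baf155 ΔMF mice. The MS15 Baf155 WT mice were low, while the MS13 Baf155 WT mouse lay within the range of the Baf155 ΔMF mice, so the genotypes overlapped. The log2 fold change was 0.38 (standard error 0.15, 95% interval 0.06 to 0.71, adjusted p = 0.601 in edgeR). This value depended on the MS13 Baf155 WT mouse. Between the MS13 mice alone it was 0.06, and without the MS13 Baf155 WT mouse it was 0.59 (standard error 0.11, adjusted p = 0.0048 in edgeR). In that fit 7.77% of 12288 genes had an adjusted p under 0.05, and *Jarid2* was the only one of the 9. Over 15 alternative fits the adjusted p of *Jarid2* ran from 0.0048 to 0.996. Gene length moved with the difference between genotypes over the whole table. The longest 10% of genes by exons (from 10170 bases, n = 1183) had a median log2 fold change of 0.11 and the shortest 10% (up to 1882 bases, n = 1183) of -0.11. *Jarid2* had 9715 bases of exons, the most of the 9 genes, and the part of length in its value was not tested.

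**Figure D2:**
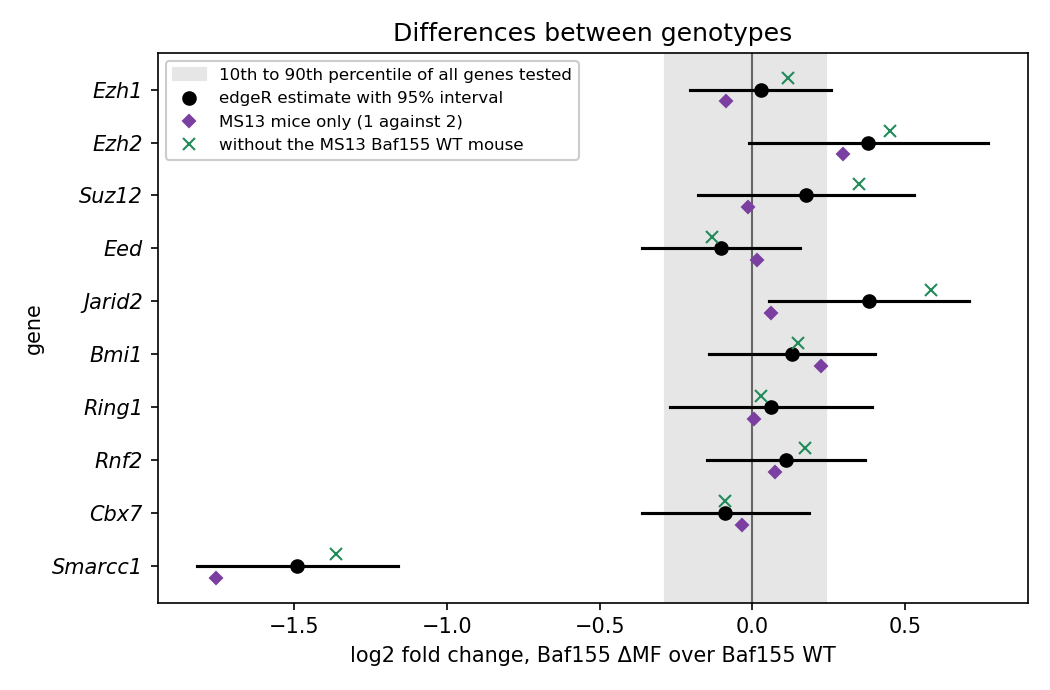
Log2 fold change of Baf155 ΔMF over Baf155 WT (horizontal axis) for the 9 Polycomb genes and *Smarcc1* (vertical axis), with 95% intervals from edgeR, the value between the MS13 mice alone and the value without the MS13 Baf155 WT mouse. The shaded band from -0.29 to 0.24 leaves out the highest 10% and the lowest 10% of all genes tested. Of the 9 intervals, that of *Jarid2* (0.06 to 0.71) excludes 0 before adjustment, and its value falls to 0.06 between the MS13 mice.

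PRC1 is built on a RING1 protein and 1 PCGF partner. *Bmi1*, a PCGF gene on chromosome 2 from 18677018 to 18686629, had 76.3, 71.0 and 77.0 CPM in the Baf155 WT mice and 83.0, 96.0 and 66.4 CPM in the Baf155 ΔMF mice. The Baf155 ΔMF mice lay on both sides of the Baf155 WT mice, with the MS13 mice above and the MS14 mouse below. Its log2 fold change was 0.13 (95% interval -0.14 to 0.40, adjusted p = 0.761 in edgeR), and it depended on single Baf155 ΔMF mice, with 0.00063 without the MS13 mouse that was highest and 0.26 without the MS14 mouse. The catalytic pair showed the same lack of separation. *Rnf2*, on chromosome 1 from 151458004 to 151500955, had 29.8, 24.7 and 28.0 CPM against 30.5, 32.4 and 26.0 CPM, a log2 fold change of 0.11 (95% interval -0.15 to 0.37, adjusted p = 0.790). *Ring1*, on chromosome 17 from 34020792 to 34024680, had 8.16, 8.57 and 9.10 CPM against 7.90, 8.51 and 10.6 CPM, a log2 fold change of 0.06 (95% interval -0.27 to 0.39, adjusted p = 0.915). The highest *Ring1* value was that of the MS14 mouse, 1 of the MS13 Baf155 ΔMF mice was the lowest and the other lay within the Baf155 WT range.

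Within each library *Rnf2* was the higher of the pair. The ratio of *Ring1* to *Rnf2* per kilobase was 0.354, 0.446 and 0.419 in the Baf155 WT mice and 0.336, 0.340 and 0.528 in the Baf155 ΔMF mice, and its spread was wider than the difference between genotypes of -0.04 on the log2 scale. With each mouse left out in turn this difference ran from -0.26 (without the MS14 mouse) to 0.07, so it had no settled direction. *Rnf2* made up 71.4% ± 2.47 of the summed pair in Baf155 WT muscle and 72.0% ± 5.41 in Baf155 ΔMF muscle. *Trmt1l* overlaps *Rnf2* on the opposite strand, an unclassified transcript overlaps it on its own strand, and no gene overlaps *Ring1* or *Bmi1*.

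*Cbx7* encodes a chromodomain protein that reads the PRC2 mark for PRC1. It lies on chromosome 15 from 79915807 to 79971119 and overlaps *Apobec3* on the opposite strand. It had 20.9, 22.4 and 19.5 CPM in the Baf155 WT mice and 18.2, 23.0 and 18.0 CPM in the Baf155 ΔMF mice, a log2 fold change of -0.09 (95% interval -0.36 to 0.19, adjusted p = 0.845 in edgeR). The Baf155 ΔMF values enclosed those of Baf155 WT.

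Per kilobase of exons, *Bmi1* was the highest of the 9 genes and *Ezh2* the lowest. Over the 6 mice the mean was 19.7 CPM per kilobase for *Bmi1*, 6.92 for *Rnf2*, 5.94 for *Ezh1*, 5.53 for *Suz12*, 5.52 for *Eed*, 3.34 for *Jarid2*, 3.13 for *Cbx7*, 2.72 for *Ring1* and 0.686 for *Ezh2*. *Bmi1* was above *Rnf2*, *Rnf2* above *Ezh1*, *Eed* above *Jarid2* and *Ring1* above *Ezh2* in every mouse. The neighbors *Ezh1* and *Suz12*, *Suz12* and *Eed*, *Jarid2* and *Cbx7*, and *Cbx7* and *Ring1* were not in the same order in every mouse. With the longest transcript as the length, *Ezh1* (10.5) and *Eed* (10.2) passed *Rnf2* (8.93), and *Bmi1* and *Ezh2* stayed first and last. Among all genes tested, *Bmi1* stood at the 87.5th percentile per kilobase and *Ezh2* at the 13.2nd.

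**Figure D3:**
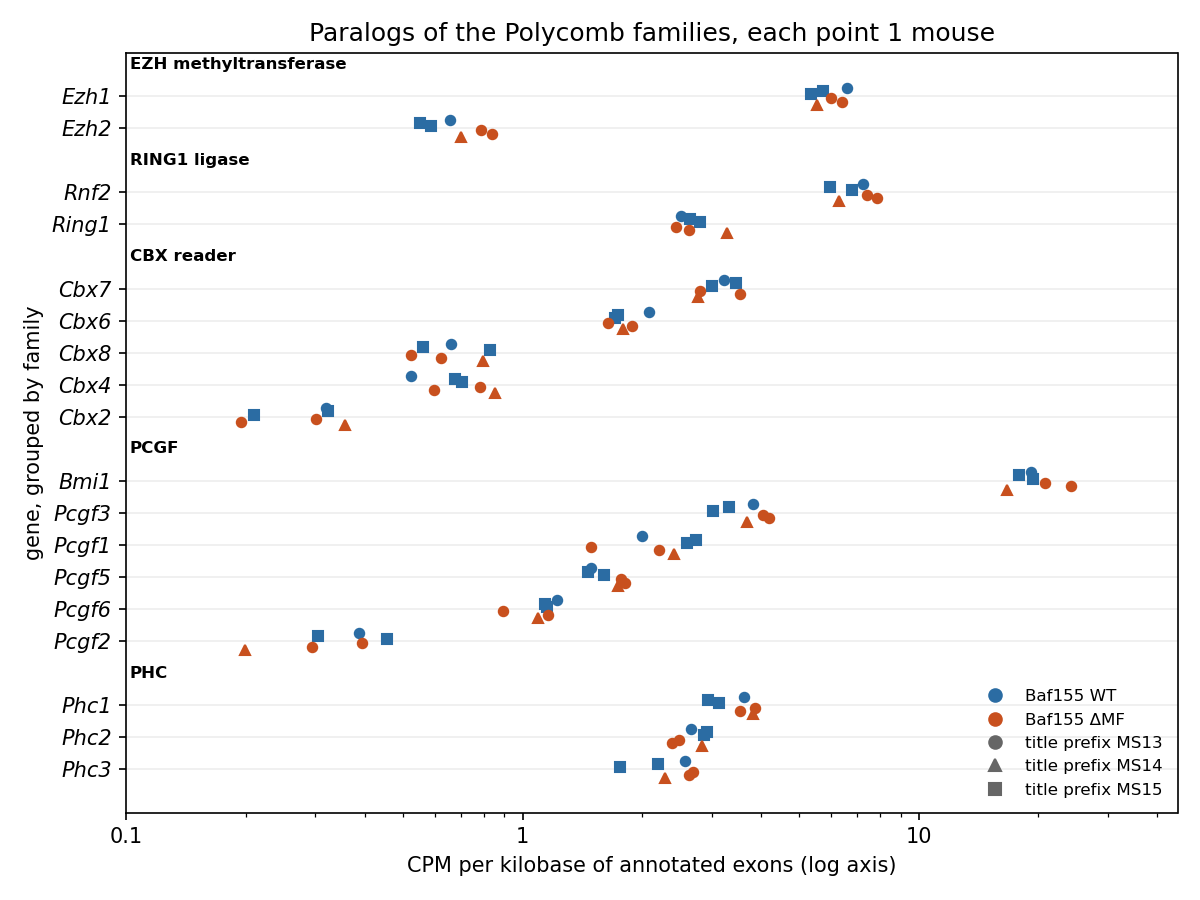
CPM per kilobase of annotated exons (horizontal log axis) in each of the 6 mice for the paralogs of the EZH, RING1, CBX, PCGF and PHC families (vertical axis), with colors for genotype and symbols for the title prefix. *Ezh1*, *Rnf2*, *Cbx7* and *Bmi1* lead their families in both genotypes. Of the genes drawn, the points of *Ezh2* and *Pcgf5* separate by genotype, as do those of 10.8% of all genes tested.

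*Bmi1* and *Cbx7* led their families as *Ezh1* and *Rnf2* did. *Bmi1* made up 67.9% ± 1.14 of the summed level of the 6 PCGF genes in Baf155 WT muscle and 69.0% ± 3.73 in Baf155 ΔMF muscle, while its near paralog *Pcgf2* made up 1.37% ± 0.242 and 0.992% ± 0.302. *Cbx7* made up 48.4% ± 2.41 of the 5 CBX genes of PRC1 in Baf155 WT muscle and 46.7% ± 4.77 in Baf155 ΔMF muscle, followed by *Cbx6* with 27.6% ± 2.64 and 27.4% ± 0.233. The 3 PHC genes were more even, and *Phc1* led with 39.2% ± 2.43 and 42.3% ± 0.742. With the longest transcript as the length *Phc2* led in Baf155 WT muscle with 40.2%, so the lead within PHC was not settled.

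The remaining genes of the complexes showed no called difference either. For PRC2, 9 further genes were in the table (*Epop* under its older symbol *E130012A19Rik*) and 7 were tested. Of the 7, 0 had an adjusted p under 0.05 in edgeR. At an unadjusted p under 0.05 there were also 0, against 7.95% of all genes tested. The genotypes did not overlap in 1 of the 7 (*Lcor*, higher), against 10.8% of all genes tested (5.2% higher). *Rbbp7*, a histone-binding subunit, was highest with 97.9 ± 2.62 CPM in the Baf155 WT group and 96.7 ± 6.92 CPM in the Baf155 ΔMF group. *Phf19*, which encodes a Polycomb-like protein and was the lowest per kilobase of those with an annotated length, was too low to be tested at 0.713 ± 0.308 and 0.543 ± 0.0888 CPM. The smallest p-values were those of *Lcorl* (log2 fold change 0.28, adjusted p = 0.643), *Lcor* (0.19, adjusted p = 0.645) and *Aebp2* (0.15, adjusted p = 0.733). For PRC1, 25 of 27 further genes were tested and 0 were called. At an unadjusted p under 0.05 there were 3, all higher, where 3.35% of all genes tested were higher. The genotypes did not overlap in the same 3 genes, *Sfmbt1*, *Bcorl1* and *Pcgf5*, where 5.2% of all genes were higher without overlap. *E2f6*, a repressor found in variant PRC1, was highest with 144.4 ± 14.8 CPM and 130.1 ± 5.49 CPM, and *Sfmbt2* was lowest per kilobase of exons, with 0.677 ± 0.269 and 0.288 ± 0.111 CPM. *Sfmbt1* had 12.4, 11.2 and 10.6 CPM in the Baf155 WT mice and 14.0, 16.2 and 14.3 CPM in the Baf155 ΔMF mice (log2 fold change 0.38, adjusted p = 0.601 in edgeR). *Bcorl1*, a corepressor of variant PRC1, had a log2 fold change of 0.47 (adjusted p = 0.601) and *Pcgf5* of 0.23 (adjusted p = 0.617). The median over the 7 PRC2 genes was 0.14 and over the 25 PRC1 genes 0.03. DESeq2 and limma-voom called none of these genes either.

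A list of 12 genes set against Polycomb marks held demethylases of H3K27, deubiquitinases of H2A, ASXL partners of BAP1 and the MLL methyltransferases. Of the 11 tested, 0 had an adjusted p under 0.05 in edgeR, DESeq2 or limma-voom and 2 an unadjusted p under 0.05 (*Kdm6b* and *Asxl1*), both higher and without overlap between genotypes, where 3.35% of all genes were higher at that unadjusted p and 5.2% were higher without overlap. The median log2 fold change was 0.17, and 10 of the 11 values were above 0, as were 49.8% of all genes tested. *Kdm6b*, a demethylase that removes the PRC2 mark, had 14.7, 12.0 and 8.83 CPM in the Baf155 WT mice and 17.2, 15.3 and 17.2 CPM in the Baf155 ΔMF mice (log2 fold change 0.49, adjusted p = 0.601). *Asxl1*, a partner of the deubiquitinase BAP1, had a log2 fold change of 0.30 (adjusted p = 0.601 in edgeR). *Kmt2d*, an enhancer methyltransferase, had 136.3, 85.2 and 66.5 CPM against 127.8, 124.2 and 119.9 CPM, a log2 fold change of 0.37 (adjusted p = 0.633). *Bap1* itself was the highest per kilobase at 10.18 CPM in the Baf155 WT group and 9.82 CPM in the Baf155 ΔMF group, with a log2 fold change of -0.05, and *Asxl3* the lowest at 0.0451 CPM per kilobase and not tested. Of all genes tested, 68.4% had the MS13 Baf155 WT mouse nearer to the Baf155 ΔMF mice than to the MS15 Baf155 WT mice. The same held for 8 of the 11 genes here. Between the MS13 mice alone the median was -0.00038, and without that Baf155 WT mouse 4 of the 11 genes had an adjusted p under 0.05 (*Kmt2d*, *Kdm6b*, *Kmt2a* and *Asxl1*, all higher), where 3.6% of all genes were called higher. *Kmt2a* was named only after its value was seen. The median exon length of the 11 genes was 9454 bases, beside 4638 for all genes tested, and the part of length was not tested.

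Genes that Polycomb complexes classically silence were mostly at the floor. Of 20 textbook targets, 12 had at most 3 counts in every library, as did 6572 of the 20632 genes of the whole table. In the shallowest library this floor allows up to 0.351 CPM. Of the 20, 7 had 0 counts in all 6 libraries, as did 4358 genes of the whole table. *Cdkn2a*, the cell cycle inhibitor that *Bmi1* is best known for repressing, had at most 2 counts in any mouse, so no fold was computed. The 6 targets with enough counts held 0 called genes and 0 at an unadjusted p under 0.05. *Cdkn1c*, an imprinted cell cycle inhibitor, was the highest at 15.2 ± 0.937 CPM in the Baf155 WT group and 14.6 ± 0.230 CPM in the Baf155 ΔMF group (adjusted p = 0.881 in edgeR). *Cdkn1a* had 4.82 ± 1.87 and 3.17 ± 1.03 CPM (log2 fold change -0.59, adjusted p = 0.627) and *Sox17*, an endothelial factor, 4.51 ± 0.472 and 5.42 ± 1.65 CPM (0.26, adjusted p = 0.741). *Gata4* was among the 7 with 0 counts in every mouse.

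The Hox clusters, which pattern the body axis, are the best known Polycomb domains. All 39 Hox genes were in the table, 18 were tested, 9 had at most 3 counts in every library and the remaining 12 lay between. Over the whole table, 6572 of 20632 genes had at most 3 counts in every library. None of the 10 Hoxb genes had enough counts, whose sum was 2.47 ± 0.681 CPM in the Baf155 WT group and 2.71 ± 0.227 CPM in the Baf155 ΔMF group. The highest levels were those of *Hoxc10* (29.9 ± 1.24 and 33.0 ± 2.13 CPM), *Hoxd8* (21.9 ± 1.84 and 21.3 ± 0.865 CPM) and *Hoxa10* (17.1 ± 2.87 and 15.2 ± 0.473 CPM). The sum was 42.5 ± 4.47 and 40.0 ± 0.782 CPM for Hoxa, 46.4 ± 2.23 and 51.8 ± 2.51 CPM for Hoxc and 29.99 ± 3.10 and 28.1 ± 1.08 CPM for Hoxd. Of the 18 genes tested, 0 were called by edgeR, DESeq2 or limma-voom, 0 had an unadjusted p under 0.05, 8 had a value above 0, and the median log2 fold change was -0.05. The smallest p-values were those of *Hoxd9* (log2 fold change -0.48, adjusted p = 0.622), *Hoxc5* (0.42, adjusted p = 0.627) and *Hoxc9* (0.27, adjusted p = 0.687). Of the 18, *Hoxc5* alone did not overlap between genotypes, where 5.2% of all genes tested were higher without overlap. It had 2.33, 2.29 and 2.77 CPM in the Baf155 WT mice and 2.99, 3.74 and 3.16 CPM in the Baf155 ΔMF mice. *Hoxb1* was among the 6 Hox genes with 0 counts in every mouse.

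**Figure D4:**
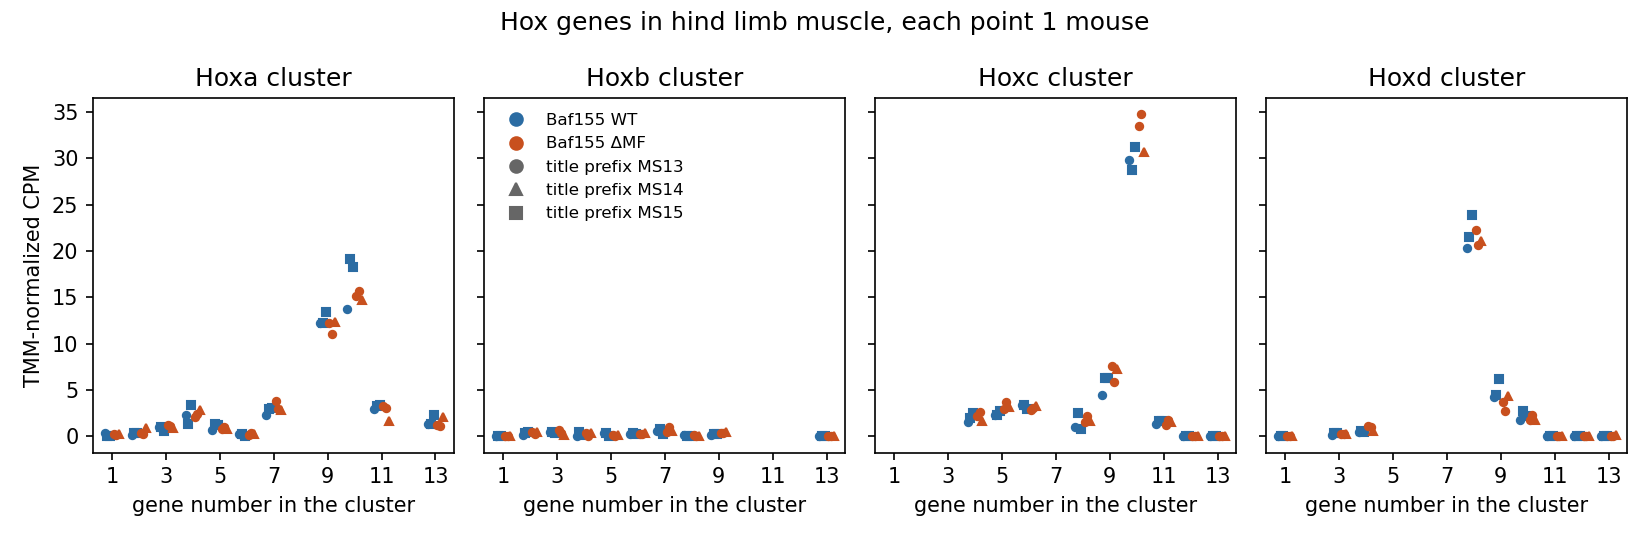
TMM-normalized CPM (vertical axis) of the 39 Hox genes in each of the 6 mice, drawn by their number within the 4 clusters (horizontal axis), with colors for genotype and symbols for the title prefix. *Hoxc10*, *Hoxd8*, *Hoxa10* and *Hoxa9* stand out in both genotypes, and the Hoxb genes lie near 0.

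The genes most like *Ezh1* and *Ezh2* across the mice were found by the root mean square distance of log2 CPM, centered on the mean of the 6 mice. For *Ezh1* they were *Mapk8* (0.02), *Rragc* (0.03) and *Dhx40* (0.03), where the median distance of all other genes was 0.19. For *Ezh2* they were *Zfp65* (0.03), *Cers4* (0.04) and *Mpp5* (0.05), with a median of 0.26 over the others.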

How the data were processed

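Total RNA libraries (TruSeq Stranded, 1 per mouse, not pooled) were sequenced, and the deposited values are the authors' expected counts (estimated reads for each gene symbol, not normalized). The submitters' processing notes name CASAVA 1.8.2, cutadapt 1.10, Bowtie2 2.2.7, TopHat2 2.1.1, RSEM 1.2.30 and limma with the mouse build GRCm38 (mm10). The annotation, and whether reads were counted by strand, are not given in the sources used here, so reads of genes that overlap on opposite strands may be shared. Counts were rounded and genotypes, taken from the labels, were compared in R 4.3.3 with edgeR 4.0.16 (filterByExpr with a minimum count of 10 and a minimum total of 15, TMM scaling, quasi-likelihood F test, Benjamini-Hochberg adjustment over 12116 genes). Intervals of 95% use the standard error of that fit. Ratios between genes were not tested. Exon lengths and positions came from GENCODE M21 (GRCm38) and promoters from RefSeq (GRCm38.p6). Ratios and distances used a prior count of 2. The genotypes were compared again with DESeq2 1.42.0, with voom in limma 3.58.1, with other scalings and filters, with a covariate for the title prefix, and without each mouse. The 9 genes and the gene lists were chosen with earlier results of these data known. From each list of other genes the text names the highest, the lowest and up to 3 with the smallest p.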

Additional observations from a re-analysis of the deposited data

How the results depend on the processing

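No paired analysis was possible because replicates were numbered in the order of the samples, numbers in the titles repeat within a genotype, and no label pairs the mice. Of all genes tested, 3 had an adjusted p under 0.05. This count became 17 when lowly counted genes were kept, 22 in DESeq2, 5 in limma-voom, 16 when the prefix was a covariate and 0 to 955 with each mouse left out (955 without the MS13 Baf155 WT mouse, 0 without 1 of the MS15 Baf155 WT mice and 0 without 1 of the MS13 Baf155 ΔMF mice). The count among the 9 Polycomb genes was 0 in every fit except the one without the MS13 Baf155 WT mouse (range 0 to 1). Among the other Polycomb-system genes it ranged from 0 to 5. The 5, of 43 tested and all higher, came in that same fit, where 3.6% of all 12288 genes were called higher. Among targets and Hox genes the count was 0 in every fit. Outside MS13 no prefix held both genotypes, so the fit with the prefix as a covariate compared genotypes within MS13 only. Its genotype values, and its count of 16 genes, therefore rest on 1 Baf155 WT mouse and 2 Baf155 ΔMF mice. It is the same comparison as that between the MS13 mice alone, and the 2 are not separate checks. Several small values changed sign. *Ezh1* had a log2 fold change of -0.033 with library size only, -0.084 with the prefix as a covariate and -0.085 between the MS13 mice alone, and -0.036 to 0.12 with each mouse left out. *Suz12* had -0.013 with the prefix as a covariate and -0.014 between the MS13 mice, and *Eed* had 0.025 and 0.017. *Ring1* ranged from -0.066 to 0.15 with each mouse left out. *Jarid2* was 0.061 between the MS13 mice and 0.26 to 0.59 with each mouse left out, past the threshold in 1 fit of 6. *Smarcc1* was -1.76 between the MS13 mice and -1.59 to -1.36 with each mouse left out and missed the threshold in 3 of these fits (adjusted p = 0.0616 without 1 MS15 Baf155 WT mouse, 0.0533 and 0.0678 without either MS13 Baf155 ΔMF mouse). With each mouse left out, *Bmi1* ranged from 0.00063 to 0.26, *Rnf2* from 0.04 to 0.20, *Suz12* from 0.05 to 0.35, *Ezh2* from 0.32 to 0.45, *Eed* from -0.21 to -0.04 and *Cbx7* from -0.21 to -0.03. The log2 ratio of *Ezh1* to *Ezh2* kept a difference between -0.40 and -0.30, while that of *Ring1* to *Rnf2* was -0.26 without the MS14 mouse and turned to 0.027 without 1 MS15 Baf155 WT mouse and to 0.068 and 0.058 without either MS13 Baf155 ΔMF mouse. The cause of these moves was not tested. Depth limits *Ezh2* most, at 40 to 54 counts per mouse.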
